A study of Homo sapiens with 54 samples.

Results

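CDH1, EPCAM, CDH2, VIM, FN1, ZEB1, SNAI2, TGFB2 and TGFBI belong to the epithelial and mesenchymal states of cells and to TGF-beta signalling. These 9 genes were taken by symbol from the 58870 genes of the table, and each symbol matched 1 gene. The cells are A549, a human lung cancer line, carrying an empty vector or a vector that overexpresses USP18, the protease that removes ISG15 from other proteins. Each vector received vehicle (DMSO), CP2 at 2 or 5 µM, CP14 at 1, 2.5 or 5 µM, or CP18 at 1, 2.5 or 5 µM for 48 h. That makes 18 groups of 3 replicates and 54 libraries. The compounds are known here only by their codes. The labels number the replicates but do not state separate cultures, so every p measures the spread between these samples.

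CDH1 encodes E-cadherin and EPCAM an adhesion protein of epithelial cells, and both fall in many cells that take on a mesenchymal state. CDH2 (N-cadherin), VIM (vimentin) and FN1 (fibronectin) often rise in that state, and ZEB1 and SNAI2 encode repressors that bind E-box sequences in promoters such as that of CDH1. TGF-beta signalling can drive the change, with TGFB2 as a ligand and TGFBI as a secreted target gene.

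Library totals ran from 16673228 to 25609062 expected counts (median 19701304). With the empty vector a typical vehicle library held 21576354 and one at 5 µM CP14 18094065, and with the USP18 vector these medians were 20369243 and 19261991. Levels below are CPM, counts brought to a common library size by TMM scaling over all 54 libraries, so the lower totals at 5 µM CP14 do not enter them directly. Scaling by relative log expression instead shifted the median fold change of no comparison by more than 0.013 in log2. These are bulk libraries: a gene lower in a group may be transcribed less in every cell or kept by fewer cells, and the counts cannot tell these apart.

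USP18 itself separated the vectors in every group. The 27 libraries of the empty vector held 8.65 to 12.3 CPM and the 27 of the USP18 vector held 953 to 2115 CPM. Vehicle libraries read 10.5, 10.7 and 11.1 CPM against 1312, 1301 and 1336 CPM. With CP2 the means were 11.0 against 1238 CPM at 2 µM and 9.46 against 1281 CPM at 5 µM. With CP14 they were 10.5 against 1045 CPM at 1 µM, 10.8 against 1190 CPM at 2.5 µM and 9.49 against 2041 CPM at 5 µM. With CP18 they were 10.7 against 988 CPM, 10.4 against 1067 CPM and 10.7 against 1121 CPM from the lowest to the highest dose. The vector label therefore holds in all 18 groups, and 5 µM CP14 has the highest USP18 level of the USP18 vector.

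Marker genes place all libraries among epithelial cells. The summed keratin levels ran from 6556 to 13130 CPM, with KRT8 as the highest gene over all libraries and KRT7 at 5 µM CP14, while the endothelial list reached at most 0.597 CPM and CLDN5 had no count in any library. Fibroblast markers summed to 4.64 to 19.4 CPM, with DCN over 0 in 10 of 54 libraries and FAP in 8. The leukocyte list reached 35.4 to 102 CPM, mostly from CD68, and CD3E had no count in any library. The medians of these lists differ between groups. Keratins read 13046 CPM for vehicle and 7928 CPM for 5 µM CP14 with the empty vector, and 8805 and 6713 CPM with the USP18 vector. Fibroblast markers read 17.1 and 7.96 CPM, then 11.3 and 4.69 CPM, in the same order. Leukocyte markers read 42.4 and 68.5 CPM, then 36.2 and 100.4 CPM, a rise of CD68, while CD14 fell by 1.96 and 3.84 in log2. Alveolar and airway markers read 4.43 and 14.5 CPM, then 17.2 and 47.9 CPM, mostly a rise of LAMP3 (0.452 to 10.9 CPM and 1.63 to 38.2 CPM), while TP63 fell by 1.15 and 2.90 in log2. Whether these shifts bear on the 9 genes was not tested.

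Divided by the length of their merged exons, the 9 genes span a wide range in vehicle cells with the empty vector. VIM reached 168 CPM per kb and TGFBI 157, CDH1 36.0, FN1 17.2, TGFB2 11.2, EPCAM 5.07, ZEB1 3.41, CDH2 0.711 and SNAI2 0.168. With the USP18 vector the same genes read 141, 56.0, 10.1, 13.5, 6.82, 1.17, 4.56, 0.0535 and 0.0655 CPM per kb. A549 thus carries a high level of vimentin together with clear E-cadherin, and FN1 stands above CDH1 only with the USP18 vector. The plot of levels by group shows all libraries.

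**Figure D1:**
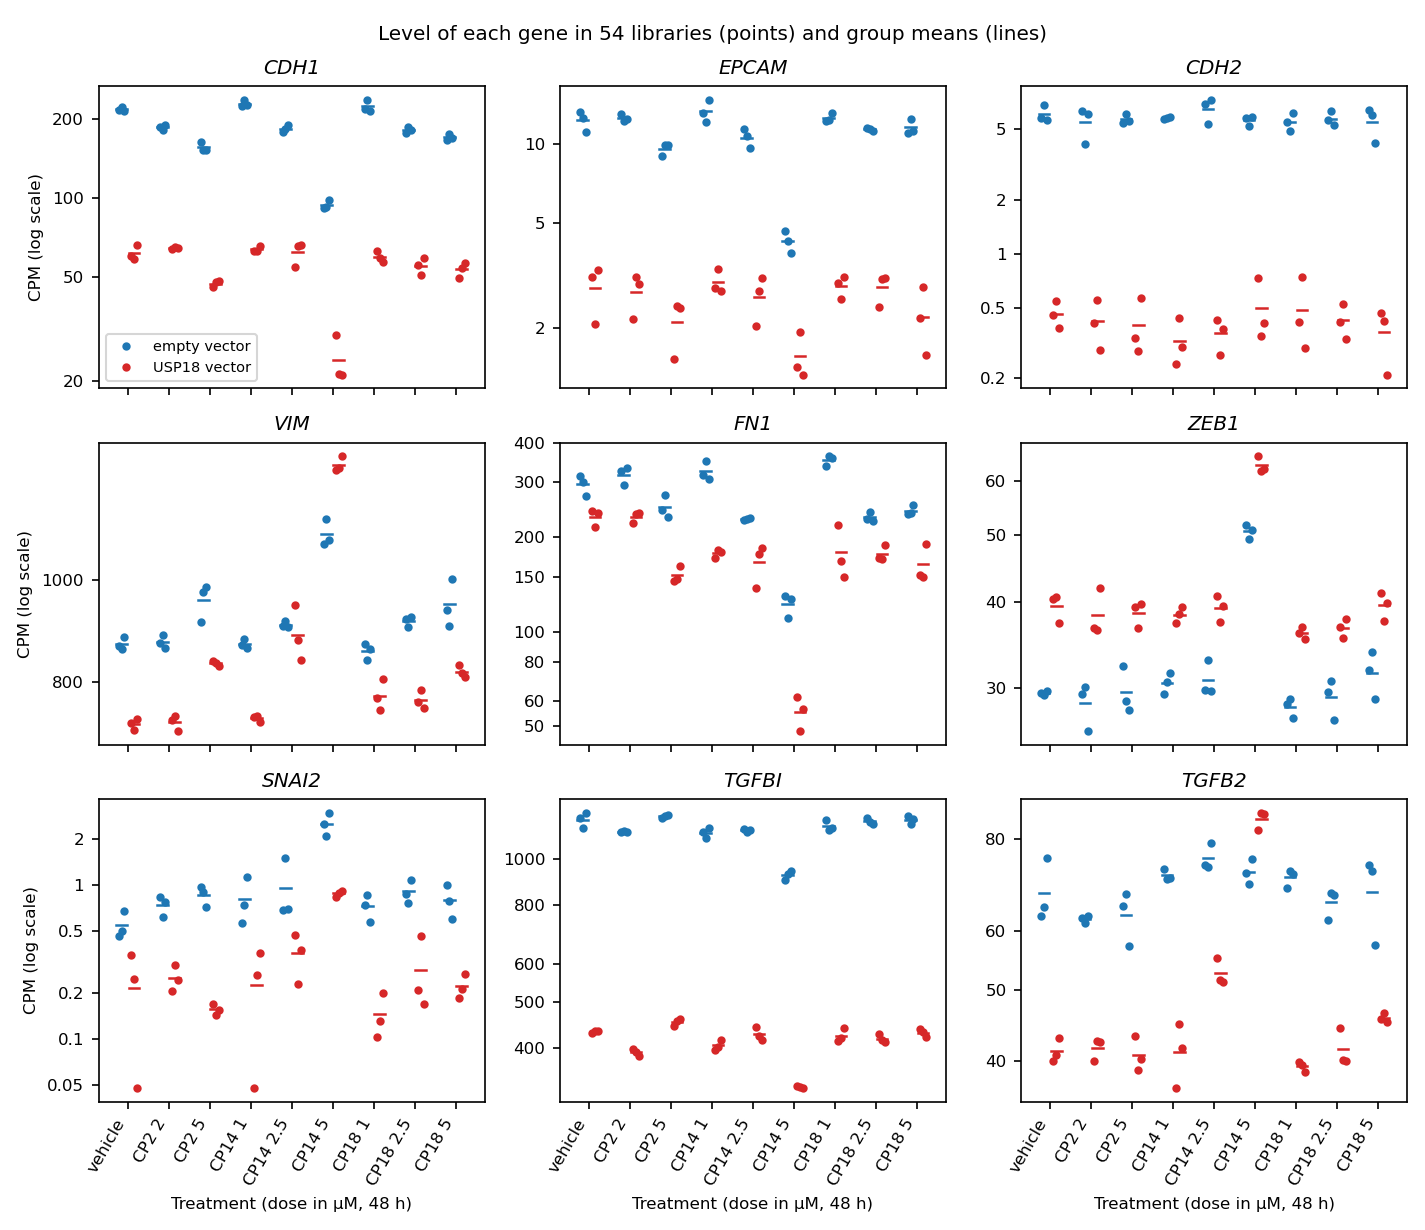
CPM (log axis) of each of the 9 genes in the 9 treatments, with the empty vector in blue and the USP18 vector in red. Points are libraries and lines are group means; the colours overlap only for VIM at 2.5 µM CP14.

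CDH1, the main epithelial cadherin, read 218, 223 and 215 CPM in the vehicle libraries of the empty vector and 60.1, 58.4 and 66.0 CPM in those of the USP18 vector. Libraries at 5 µM CP14 read 91.7, 92.5 and 98.4 CPM against 29.9, 21.3 and 21.1 CPM. The lowest empty vector library (91.7 CPM) lies above the highest USP18 vector library (66.0 CPM) among 27 and 27. Across the 18 groups the highest mean, 229.5 CPM at 1 µM CP14 with the empty vector, was 9.52 times the lowest. The first 3 groups, 1 µM CP14, 1 µM CP18 (224 CPM) and vehicle (219 CPM), overlapped. Next came 2 µM CP2 (187 CPM), 2.5 µM CP14 (184 CPM) and 2.5 µM CP18 (182 CPM), also overlapping. Below them stood 5 µM CP18 at 171 CPM, 5 µM CP2 at 156 CPM and 5 µM CP14 at 94.2 CPM, each apart from the next. With the USP18 vector 7 groups from 64.5 to 53.5 CPM ran into one another, and only 5 µM CP2 (47.1 CPM) and 5 µM CP14 (24.1 CPM) stood apart. CDH1 therefore steps down with dose for all 3 compounds in the empty vector, and 5 µM CP14 is lowest in each vector.

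EPCAM, an epithelial surface glycoprotein, read 13.3, 12.6 and 11.1 CPM with vehicle and the empty vector and 3.11, 2.06 and 3.32 CPM with the USP18 vector. With 5 µM CP14 it read 4.65, 4.28 and 3.87 CPM against 1.42, 1.93 and 1.33 CPM. The vectors did not overlap over 54 libraries, with 3.87 to 14.8 CPM against 1.33 to 3.35 CPM. In the order of groups 8 of the empty vector overlapped in a chain from 13.4 to 9.61 CPM, and 5 µM CP14 followed alone at 4.27 CPM. The 9 groups of the USP18 vector came last with no gap between neighbours, from 2.99 to 1.56 CPM. The clear gaps in the order of EPCAM thus lie at the vector and at the highest CP14 dose.

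CDH2, the cadherin of mesenchymal and neural cells, is low in all libraries and nearly absent with the USP18 vector. Vehicle libraries read 5.81, 6.83 and 5.67 CPM against 0.451, 0.540 and 0.385 CPM, the latter from 9, 11 and 8 counts. With 5 µM CP14 they read 5.79, 5.22 and 5.86 CPM against 0.732, 0.346 and 0.408 CPM. All 27 libraries of the empty vector (4.15 to 7.34 CPM) lay above all 27 of the other (0.210 to 0.745 CPM). Within a vector no group stood apart from its neighbours, so CDH2 orders by vector, with 20.1 times between the highest and lowest means.

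VIM, the intermediate filament protein of mesenchymal cells, read 865, 861 and 883 CPM with vehicle and the empty vector and 732, 721 and 737 CPM with the USP18 vector. Treated with 5 µM CP14 it read 1082, 1143 and 1090 CPM against 1272, 1277 and 1309 CPM, so the order of the vectors turned round. The highest group, 5 µM CP14 with the USP18 vector (1286 CPM), was 1.76 times the lowest, vehicle with the same vector (730.2 CPM). The same dose with the empty vector came next at 1105 CPM, apart from its neighbours on each side. All other empty vector groups overlapped from 957 CPM (5 µM CP2) to 856 CPM (1 µM CP18), with 2.5 µM CP14 of the USP18 vector (887 CPM) among them. Lower stood 5 µM CP2 (833 CPM) and 5 µM CP18 (818 CPM), then 1 µM and 2.5 µM CP18 (777 and 769.7 CPM), then 1 µM CP14, 2 µM CP2 and vehicle of the USP18 vector.

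FN1, a fibronectin of the matrix, read 315, 302 and 271 CPM with vehicle and the empty vector and 243, 216 and 239 CPM with the USP18 vector. The 5 µM CP14 libraries held 129.8, 111 and 127 CPM against 61.8, 48.1 and 56.5 CPM. The highest mean, 353 CPM at 1 µM CP18 with the empty vector, was 6.37 times the lowest, 55.5 CPM at 5 µM CP14 with the USP18 vector. From that top group 10 groups overlapped in a chain down to 2.5 µM CP14 of the empty vector (229 CPM), vehicle and 2 µM CP2 of the USP18 vector (both 233 CPM) among them. The other treated USP18 vector groups followed from 179 CPM (1 µM CP18) to 152 CPM (5 µM CP2), and both 5 µM CP14 groups stood below. FN1 is thus low already at 1 µM of CP14 or CP18 with the USP18 vector, and high at those doses with the empty vector.

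Promoter windows of 300 bases (250 before and 50 after the start) were matched for 6 of 9 members, in 13 windows, from RefSeq starts on GRCh38.p14. CDH1, EPCAM and SNAI2 had no entry in the set of windows used, so they were not searched. Of the 6 members searched only FN1 has a cAMP response element (TGACGTCA, in capitals, the same on both strands), which 1.85% of 35116 promoter windows hold. It is shown since FN1 fell in more treated groups, 12 of 16, than any other member. The element lies 183 bases before the start in chr2:215436019-215436318, minus strand. The AP-1 site TGACTCA or TGAGTCA, present in 4.95% of windows, is in none of the 13.
FN1: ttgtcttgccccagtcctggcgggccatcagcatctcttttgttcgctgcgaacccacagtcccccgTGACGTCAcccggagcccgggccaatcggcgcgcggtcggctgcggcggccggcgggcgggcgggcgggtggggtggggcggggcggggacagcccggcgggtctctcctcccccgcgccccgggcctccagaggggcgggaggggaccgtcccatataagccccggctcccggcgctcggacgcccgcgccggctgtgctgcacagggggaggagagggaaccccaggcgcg

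ZEB1, a zinc finger repressor of CDH1, read 29.6, 29.3 and 29.7 CPM with vehicle and the empty vector and 40.4, 40.7 and 37.3 CPM with the USP18 vector. CP14 at 5 µM gave 51.7, 49.4 and 50.8 CPM against 65.1, 62.0 and 62.4 CPM. The 2 groups at 5 µM CP14 stood first, at 63.2 CPM with the USP18 vector and 50.7 CPM with the empty vector. The other 8 groups of the USP18 vector came next (39.6 to 36.1 CPM), then the other 8 of the empty vector (31.5 to 28.2 CPM), with no gap inside either set. ZEB1 is thus higher with the USP18 vector and highest at 5 µM CP14. At 1 µM CP18 its libraries lay below those of vehicle in each vector, by a small margin.

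Among the 6 members with windows, only ZEB1 holds the E-box CAGGTG, read as CACCTG on the other strand, in 2 of its 7 windows. ZEB1 and SNAI2 proteins bind this sequence. Of all promoter windows 20.6% hold it at least once and 0.635% hold it 3 times or more. The window with 3 matches (capitals), at −242, −85 and 33 from the start, is shown as the one of the 7 with most matches. It is chr10:31318966-31319265, plus strand, from RefSeq and GRCh38.p14. The share of 0.635% is for single windows and not for the highest of several. A match in sequence is a description and does not show that a factor binds in these cells.
ZEB1: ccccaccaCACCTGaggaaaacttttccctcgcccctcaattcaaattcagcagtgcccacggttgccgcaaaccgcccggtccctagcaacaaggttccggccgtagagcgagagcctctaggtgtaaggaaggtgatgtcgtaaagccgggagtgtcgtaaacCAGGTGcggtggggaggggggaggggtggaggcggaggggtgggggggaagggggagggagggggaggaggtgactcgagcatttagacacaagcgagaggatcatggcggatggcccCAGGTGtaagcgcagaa

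SNAI2, a repressor of the same E-box kind, sits near the limit of counting. Vehicle libraries held 10, 9 and 17 counts (0.468, 0.504 and 0.678 CPM) with the empty vector and 7, 5 and 1 (0.351, 0.246 and 0.0481 CPM) with the USP18 vector. CP14 at 5 µM gave 46, 42 and 53 counts (2.49, 2.09 and 2.93 CPM) against 17, 18 and 18 (0.830, 0.891 and 0.918 CPM). Only 5 µM CP14 with the empty vector (2.502 CPM) stood apart; the remaining 17 groups overlapped in a chain from 0.955 to 0.144 CPM. Within each vector SNAI2 is thus highest at 5 µM CP14, and outside that dose every empty vector mean (0.550 to 0.955 CPM) lies above every USP18 vector mean (0.144 to 0.360 CPM).

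TGFB2, a TGF-beta ligand, read 62.8, 64.6 and 75.4 CPM with vehicle and the empty vector and 40.0, 40.7 and 43.0 CPM with the USP18 vector. At 5 µM CP14 it read 71.9, 69.4 and 75.1 CPM, inside the range of its vehicle, against 82.2, 86.7 and 86.5 CPM, far above its vehicle. The 5 µM CP14 group of the USP18 vector (85.1 CPM) was the highest of 18 and 2.16 times the lowest. The 9 groups of the empty vector overlapped from 75.3 to 62.3 CPM, followed by 2.5 µM CP14 (52.6 CPM) and 5 µM CP18 (45.8 CPM) of the USP18 vector. The 6 remaining groups overlapped from 41.7 to 39.4 CPM. With the USP18 vector TGFB2 thus stood above vehicle (41.2 CPM) at 2.5 and 5 µM CP14, but not at 1 µM (41.1 CPM). With the empty vector the CP14 means were 71.4, 75.3 and 72.1 CPM from the lowest to the highest dose. These lie in the same overlapping chain as their vehicle (67.6 CPM).

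TGFBI, a secreted matrix protein induced by TGF-beta, read 1216, 1161 and 1248 CPM with vehicle and the empty vector and 429, 433 and 434 CPM with the USP18 vector. At 5 µM CP14 it read 902, 930.1 and 943 CPM against 331, 331 and 329 CPM. The vectors did not overlap over 54 libraries, with 902 to 1248 CPM against 329 to 459 CPM. In the order of groups 8 of the empty vector overlapped (1229 to 1133 CPM), and 5 µM CP14 stood below them at 925 CPM. With the USP18 vector 5 µM CP2 stood first (453 CPM), 7 groups overlapped from 432 to 391 CPM, and 5 µM CP14 came last (330.3 CPM).

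Transcripts that overlap or lie opposite to members were read as levels, without a test. ZEB1-AS1 went from 4.01 to 7.39 CPM between vehicle and 5 µM CP14 with the empty vector and from 2.80 to 4.16 CPM with the USP18 vector, and VIM-AS1 from 1.90 to 2.32 CPM, with libraries that overlap, and from 1.48 to 2.38 CPM. TGFB2-OT1 read 4.22 and 3.85 CPM, then 2.42 and 5.81 CPM, and TGFB2-AS1 reached at most 0.671 CPM in any of the 54 libraries. The kit named in the labels keeps strand, but the counting is not stated to use it, so reads of a gene and of an overlapping partner cannot be told apart.

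With vehicle, every member that could be tested differed between the vectors. Of the 9 genes 8 passed an adjusted p of 0.05 (edgeR quasi-likelihood, Benjamini-Hochberg), 1 higher and 7 lower, beside 57.6% of all 15252 genes tested (29.0% higher and 28.7% lower). The change was over 1 in log2 for 4 members and for 10.1% of all genes. Both epithelial members fell: CDH1 by 1.84 in log2 (log2 fold change −1.84, SE 0.0381, adjusted p 3.25e-17) and EPCAM by 2.12 (−2.12, SE 0.144, adjusted p 7.15e-10). These are levels 3.58 and 4.36 times lower. The mesenchymal members CDH2, VIM and FN1 fell too. CDH2 had the largest fold change, −3.72 (SE 0.220, adjusted p 1.04e-10, 13.2 times lower), while VIM at −0.26 (SE 0.0232, adjusted p 2.55e-08) and FN1 at −0.35 (SE 0.0482, adjusted p 5.86e-06) moved little. TGFBI fell with a log2 fold change of −1.50 (SE 0.0268, adjusted p 4.35e-18) and TGFB2 with −0.73 (SE 0.0587, adjusted p 7.87e-09). ZEB1 alone rose, at 0.41 (SE 0.0560, adjusted p 6.53e-06). Epithelial members and mesenchymal members thus fell together, beside a change in most genes of the table.

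SNAI2 was too low for the filter in the vehicle vector comparison and was not tested. Without a filter its log2 fold change was −1.35 (adjusted p 0.0663), DESeq2 gave −1.37 (0.176) and a fit of all 54 libraries gave −1.37 (adjusted p 0.00967), so the drop is seen in each. It passed in the last of these and in a fit that left out a library, where 9 of 9 members passed. The labels do not state how many derived lines carry each vector, so its effect cannot be separated from other differences between lines. All 8 calls held when any library was left out.

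Among the compound treatments 5 µM CP14 moved the most members. With the empty vector 7 of 9 passed, 3 higher and 4 lower, with 4 over 1 in log2, beside 63.2% of 15947 genes tested (31.0% higher, 32.1% lower, 13.8% over 1 in log2). With the USP18 vector 8 of 9 passed, 4 higher and 4 lower, again with 4 over 1, beside 68.6% of genes (34.4% higher, 34.3% lower, 18.0% over 1). Both comparisons use their own vehicle libraries, and the interaction asks whether their changes differ. It passed for 3 of 9 members, beside 27.7% of genes.

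CDH1 fell alike in both vectors at 5 µM CP14, with log2 fold changes of −1.22 (SE 0.0662, adjusted p 8.07e-13) and −1.34 (SE 0.0856, adjusted p 8.83e-12), and its interaction of −0.12 did not pass (adjusted p 0.443). Without replicate 1 of the treated USP18 vector group that interaction passed (adjusted p 0.00335), so equal size is uncertain. EPCAM fell by 1.53 (−1.53, SE 0.147, adjusted p 9.48e-09) and by 0.85 (−0.85, SE 0.204, adjusted p 0.000952). Its interaction of 0.68 (95% interval 0.14 to 1.21) had an adjusted p of 0.0562 and passed in 6 of 18 alternatives, with 0.0326 as the lowest. Both epithelial members thus lie lower after the treatment in either vector.

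FN1 fell at 5 µM CP14 and fell further with the USP18 vector: −1.27 (SE 0.0701, adjusted p 9.79e-13) against −2.06 (SE 0.0761, adjusted p 7.58e-16), with an interaction of −0.79 (SE 0.103, adjusted p 6.83e-06). VIM rose in both and rose further with USP18: 0.35 (SE 0.0308, adjusted p 2.91e-09) against 0.82 (SE 0.0310, adjusted p 9.96e-16), with an interaction of 0.48 (SE 0.0436, adjusted p 6.25e-08). The mesenchymal members thus part ways, vimentin up and fibronectin down. CDH2 did not pass in either vector (adjusted p 0.546 and 0.779), and with the USP18 vector its SE of 0.343 leaves room for a sizeable change.

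ZEB1 rose at 5 µM CP14 by 0.78 (SE 0.0504, adjusted p 1.54e-11) and 0.69 (SE 0.0479, adjusted p 3.72e-11) in log2 and SNAI2 by 2.15 (SE 0.336, adjusted p 9.74e-06) and 2.02 (SE 0.445, adjusted p 0.00041), empty vector first. Their interactions of −0.09 and −0.13 did not pass (adjusted p 0.379 and 0.919), so no difference between vectors was found, though the SNAI2 interaction has an interval of −1.58 to 1.32 and would miss a large one. TGFBI fell by 0.39 (−0.39, SE 0.0317, adjusted p 7.17e-10) and 0.38 (−0.38, SE 0.0329, adjusted p 1.43e-09), and its interaction did not pass. TGFB2 differed most between vectors: 0.09 (SE 0.0557, adjusted p 0.18) against 1.05 (SE 0.0579, adjusted p 6.9e-13), with an interaction of 0.97 (95% interval 0.80 to 1.13, adjusted p 1.87e-08). The empty vector value passed only without vehicle replicate 3, with an adjusted p of 0.00534. CP14 at 5 µM thus takes TGFB2 in the USP18 vector from below the empty vector to above it.

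**Figure D2:**
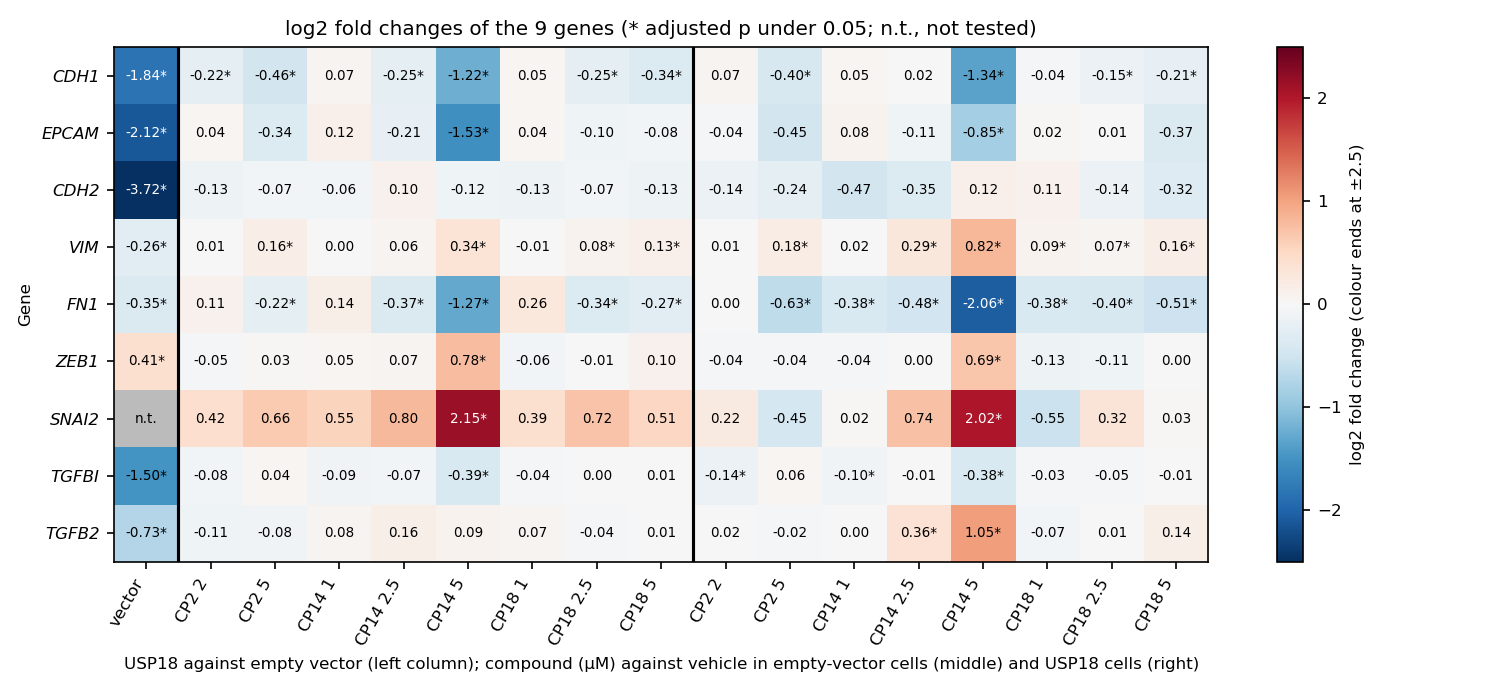
Log2 fold changes of the 9 genes, with the vehicle vector comparison in the left column and each treatment against its own vehicle in the empty vector (middle) and the USP18 vector (right). A star marks an adjusted p under 0.05; 5 µM CP14 has the strongest colours in each vector.

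The map of log2 fold changes shows that 5 µM CP14 has the sign of the vehicle vector comparison for CDH1, EPCAM, FN1, TGFBI and ZEB1 and the opposite sign for VIM and TGFB2, the latter passing with the USP18 vector alone. CDH2, with the largest vector change, passed for the compound in neither vector. These comparisons share vehicle libraries, so the values stand side by side without a measure of likeness. CDH1 reads −1.84 for the vector and −1.22 and −1.34 for the compound (empty vector, then USP18 vector), EPCAM −2.12, −1.53 and −0.85, FN1 −0.35, −1.27 and −2.06. TGFBI reads −1.50, −0.39 and −0.38, ZEB1 0.41, 0.78 and 0.69, VIM −0.26, 0.35 and 0.82, TGFB2 −0.73, 0.09 and 1.05. SNAI2, not tested for the vector, read −1.35 there without a filter, against 2.15 and 2.02.

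At 2.5 µM CP14 members passed in each vector, and only the interaction tests whether the vectors differ. With the empty vector 2 of 9 passed beside 15.1% of 15827 genes, CDH1 at −0.25 (SE 0.0505, adjusted p 0.00302) and FN1 at −0.37 (SE 0.0761, adjusted p 0.00317). In cells with USP18 3 of 9 passed, near the 32.7% of all genes: VIM at 0.29 (SE 0.0340, adjusted p 3.62e-06), TGFB2 at 0.36 (SE 0.0614, adjusted p 0.000191) and FN1 at −0.48 (SE 0.0782, adjusted p 0.000118). FN1 is thus the member that fell in both. The interaction passed for 2 of 9 beside 8.00% of genes, VIM at 0.22 (SE 0.0480, adjusted p 0.00793) and CDH1 at 0.26 (SE 0.0789, adjusted p 0.0476). The CDH1 interaction is weak: 10 of 12 fits without a library lost it, up to an adjusted p of 0.165, as did relative log expression scaling and the fit of all 54 libraries. TGFB2 with the empty vector (0.16, adjusted p 0.0707) passed without a filter, with replicate as a block and without vehicle replicate 3, where the adjusted p reached 0.00425 at the lowest.

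At 1 µM CP14 with the empty vector 0 of 9 passed in edgeR beside 0.861% of 15797 genes, with 2 at an unadjusted p under 0.05 and 1 in DESeq2. That gene is TGFBI (DESeq2 adjusted p 0.0226), and FN1 passed as higher without a filter (adjusted p 0.000366). The adjusted p of these 2 members in the quasi-likelihood fit was 0.141 and 0.263. In USP18 cells 2 of 9 passed beside 15.3% of genes, FN1 at −0.38 (SE 0.0563, adjusted p 0.000183) and TGFBI at −0.10 (SE 0.0282, adjusted p 0.0258). TGFBI lost its pass in 5 of 6 fits without a library, up to an adjusted p of 0.103. The interaction passed for 1 of 9, beside 5.79% of genes: FN1 at −0.53 (SE 0.0780, adjusted p 0.00106), which held throughout. At the lowest CP14 dose the fall of FN1 with the USP18 vector is therefore the member result that depends least on the settings.

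CP18 at 1 µM gave a similar picture. It is set against the same vehicle libraries as 1 µM CP14, so part of this likeness is built in. With the empty vector 0 of 9 passed in edgeR beside 0.368% of 15771 genes, with 1 at an unadjusted p under 0.05 and 0 in DESeq2. In USP18 cells 2 of 9 passed beside 15.7% of genes, FN1 at −0.38 (SE 0.0910, adjusted p 0.00809) and VIM at 0.09 (SE 0.0283, adjusted p 0.0391). FN1 missed only without replicate 3 of that treated group (adjusted p 0.0559). VIM missed in 5 of 6 fits without a library, up to an adjusted p of 0.186, and in the fit of all 54 libraries, the fit of 2 groups and under relative log expression scaling. The interaction passed for 1 of 9 beside 7.19% of genes, again FN1 (−0.65, SE 0.126, adjusted p 0.00567). Its treated empty vector mean lies above vehicle by 0.26 in log2 (adjusted p 0.237), so part of the interaction comes from the empty vector. That FN1 value passed without a filter (adjusted p 1.58e-12) and in the fit of 2 groups (0.0325), and its adjusted p reached 0.521 at most.

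CP18 at 2.5 and 5 µM passed for the same 3 members in each vector, CDH1 and FN1 lower and VIM higher. At 2.5 µM that was 3 of 9 beside 5.96% of 15747 genes with the empty vector and 3 of 9 beside 14.2% with the USP18 vector. FN1 is the firm one at −0.34 (SE 0.0509, adjusted p 0.000337) and −0.40 (SE 0.0523, adjusted p 2.97e-05), with CDH1 at −0.25 (SE 0.0403, adjusted p 0.000641) with the empty vector. CDH1 with the USP18 vector was −0.15 (adjusted p 0.0473) and missed in 4 of 6 fits without a library, up to 0.265, in the fit of all 54, the fit of 2 groups and with replicate as a block. VIM at 0.08 (adjusted p 0.0472) and 0.07 (adjusted p 0.0446) missed in 5 of 6 fits in each vector, up to 0.15 and 0.166. VIM also missed in both vectors without a filter, with replicate as a block and in the fit of all 54, and with the USP18 vector in the fit of 2 groups and under relative log expression scaling. The interaction passed for 0 of 9 in edgeR beside 0.197% of genes, with 0 at an unadjusted p under 0.05 and 0 in DESeq2.

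At 5 µM CP18 the counts were 3 of 9 beside 8.40% of 15662 genes with the empty vector and 3 of 9 beside 10.7% with the USP18 vector. CDH1 was −0.34 (SE 0.0499, adjusted p 0.000375) and −0.21 (SE 0.0571, adjusted p 0.0238), FN1 −0.27 (SE 0.0764, adjusted p 0.0344) and −0.51 (SE 0.0778, adjusted p 0.000198). VIM was 0.13 (SE 0.0403, adjusted p 0.0449) and 0.16 (SE 0.0404, adjusted p 0.015). In the empty vector CDH1 and in the USP18 vector FN1 held in every fit, while the other 4 calls did not. FN1 with the empty vector missed in DESeq2 and in 4 of 6 fits without a library (up to an adjusted p of 0.174), CDH1 with the USP18 vector in 4 of 6 (up to 0.169). VIM missed in 4 of 6 with the empty vector (up to 0.145), in the fit of 2 groups, with replicate as a block and under relative log expression scaling. With the USP18 vector VIM missed without CP18 replicate 1, vehicle replicate 1 or vehicle replicate 2 (up to 0.063). Interactions passed for 0 of 9 in edgeR beside 0.268% of genes, with 1 at an unadjusted p under 0.05 and 0 in DESeq2. CP18 therefore shows no member where the vectors differ above 1 µM.

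CP2 at 5 µM also passed for CDH1, FN1 and VIM in each vector, 3 of 9 beside 12.1% of 15760 genes with the empty vector and 3 of 9 beside 19.0% with the USP18 vector. CDH1 was −0.46 (SE 0.0418, adjusted p 1.46e-06) and −0.40 (SE 0.0492, adjusted p 1.4e-05), VIM 0.16 (SE 0.0329, adjusted p 0.00368) and 0.18 (SE 0.0330, adjusted p 0.000836). FN1 was −0.22 (SE 0.0611, adjusted p 0.0223) and −0.63 (SE 0.0628, adjusted p 1.09e-06). FN1 with the empty vector missed in 4 of 6 fits without a library, up to an adjusted p of 0.112, in the fit of all 54 and in the fit of 2 groups. An interaction passed for 1 of 9 beside 0.920% of genes, FN1 at −0.41 (SE 0.0875, adjusted p 0.0287). It missed in 8 of 12 fits without a library (up to 0.11), with replicate as a block and in the fit of all 54, where the adjusted p reached 0.169 at most. EPCAM lay lower in both (−0.34 and −0.45) without passing (adjusted p 0.115 and 0.128). It passed with the empty vector when no filter was used (0.0474) and with the USP18 vector without vehicle replicate 2 (0.0361). CP2 thus has the signs of CP18 for CDH1, FN1 and VIM. Both compounds are set against the same vehicle libraries, so part of this likeness is built in.

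CP2 at 2 µM, which has no matched dose of another compound, passed for 1 of 9 beside 1.84% of 15811 genes with the empty vector and 1 of 9 beside 1.13% with the USP18 vector. These were CDH1 (−0.22, SE 0.0317, adjusted p 0.000443) and TGFBI (−0.14, SE 0.0251, adjusted p 0.00293). With all 54 fitted together CDH1 missed (adjusted p 0.073). An interaction passed for 1 of 9 beside 0.0569% of genes: CDH1 at 0.29 (SE 0.0520, adjusted p 0.0329), as its USP18 vector value was 0.07 (adjusted p 0.617). That interaction missed in 9 of 12 fits without a library (up to 0.15) and with all 54 fitted together (adjusted p 0.815). The CDH1 fall with 2 µM CP2 is therefore small and its link to the vector insecure.

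Set against each other at 5 µM, CP14 and CP18 differ for most members. With the empty vector 7 of 9 passed beside 57.5% of 15860 genes and with the USP18 vector 7 of 9 beside 64.9%. CDH1 was lower with CP14 by 0.87 (−0.87, 95% interval −1.04 to −0.70, adjusted p 1.8e-08) and by 1.13 (−1.13, −1.33 to −0.93, adjusted p 2.66e-09). EPCAM was −1.44 (−1.78 to −1.11, adjusted p 2.37e-07) and −0.48 (−0.94 to −0.01, adjusted p 0.0656). The latter passed in 3 alternatives, the fit of all 54 and those without CP14 replicate 2 or CP18 replicate 3, with 0.0133 as the lowest adjusted p. FN1 was −0.998 (−1.18 to −0.81, adjusted p 8.14e-09) and −1.55 (−1.74 to −1.35, adjusted p 1.62e-11), VIM 0.22 (0.12 to 0.31, adjusted p 0.000432) and 0.67 (0.57 to 0.76, adjusted p 1.01e-10). ZEB1 was 0.68 (0.55 to 0.81, adjusted p 1.65e-08) and 0.69 (0.56 to 0.82, adjusted p 4.71e-09). The same signs as against vehicle return here, which is partly built in since both use the same CP14 libraries. For the members that passed, CP18 at the same dose does not stand in for CP14. SNAI2 was 1.64 (1.05 to 2.24, adjusted p 5.81e-05) and 2.00 (1.182 to 2.81, adjusted p 0.000159), TGFBI −0.39 (−0.48 to −0.31, adjusted p 6.74e-08) and −0.36 (−0.45 to −0.28, adjusted p 1.78e-07). TGFB2 was 0.09 (−0.06 to 0.23, adjusted p 0.311) and 0.91 (0.76 to 1.06, adjusted p 8.39e-10). CDH2 did not differ, at 0.02 (−0.39 to 0.44) and 0.44 (−0.42 to 1.31).

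CP14 against CP2 at 5 µM passed for 8 of 9 beside 59.4% of 15882 genes with the empty vector and for 7 of 9 beside 67.5% with the USP18 vector. CDH1 was −0.75 (−0.91 to −0.59, adjusted p 8.34e-08) and −0.96 (−1.15 to −0.77, adjusted p 2.64e-08), FN1 −1.04 (−1.20 to −0.89, adjusted p 6.8e-10) and −1.45 (−1.61 to −1.28, adjusted p 9.86e-12). VIM was 0.19 (0.11 to 0.27, adjusted p 0.000435) and 0.63 (0.54 to 0.71, adjusted p 7.31e-11), ZEB1 0.75 (0.63 to 0.87, adjusted p 2.31e-09) and 0.71 (0.59 to 0.83, adjusted p 1.51e-09). These values lie near those against CP18, but both sets use the same CP14 libraries, so their likeness is partly built in. SNAI2 was 1.498 (0.96 to 2.04, adjusted p 5.89e-05) and 2.45 (1.65 to 3.25, adjusted p 1.37e-05), TGFBI −0.43 (−0.50 to −0.35, adjusted p 5.32e-09) and −0.45 (−0.53 to −0.38, adjusted p 1.96e-09). TGFB2 was 0.17 (0.06 to 0.29, adjusted p 0.0121) and 1.06 (0.94 to 1.179, adjusted p 4.97e-12), the former lost without CP14 replicate 3 or CP2 replicate 3 (up to 0.0642). EPCAM was −1.18 with the empty vector (−1.52 to −0.85, adjusted p 2.91e-06), and with the USP18 vector −0.42 (−0.86 to 0.03) had an adjusted p of 0.0914. That value passed without CP14 replicate 2 or CP2 replicate 1, with 0.0118 as the lowest.

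Between CP18 and CP2 at 5 µM no member passed, though CDH1 libraries did not overlap in either vector. In edgeR 0 of 9 passed beside 0.0257% of 15591 genes with the empty vector and 0 of 9 beside 0.00641% with the USP18 vector, with 1 at an unadjusted p under 0.05 in each and 0 in DESeq2 in each. CDH1 came nearest, at 0.12 (0.01 to 0.23, adjusted p 0.858) and 0.19 (0.08 to 0.31, adjusted p 0.742). FN1 was −0.05 (−0.22 to 0.12) and 0.12 (−0.05 to 0.30), VIM −0.03 (−0.12 to 0.07) and −0.02 (−0.11 to 0.08). The intervals for EPCAM (−0.05 to 0.57 and −0.37 to 0.54) and SNAI2 (−0.82 to 0.53 and −0.60 to 1.56) are wide, so small differences there would not show.

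At lower doses CP14 and CP18 were close. At 1 µM 0 of 9 passed in edgeR beside 0.0191% of 15720 genes with the empty vector and 0 of 9 beside 0.0191% with the USP18 vector, with 1 at an unadjusted p under 0.05 in each and 0 in DESeq2 in each. FN1 was −0.12 (−0.31 to 0.06) and 0.00 (−0.19 to 0.19), CDH1 0.03 (−0.06 to 0.11) and 0.10 (0.00 to 0.20). At 2.5 µM with the empty vector 0 of 9 passed in edgeR beside 1.80% of 15706 genes, with 2 at an unadjusted p under 0.05 and 1 in DESeq2. TGFB2 came nearest there at 0.19 (0.09 to 0.30, adjusted p 0.0584) and passed in 4 alternative settings, with 0.00653 as the lowest adjusted p. In cells with USP18 3 of 9 passed beside 28.2% of genes: TGFB2 at 0.35 (0.24 to 0.47, adjusted p 9.42e-05), VIM at 0.21 (0.14 to 0.29, adjusted p 0.000156) and CDH1 at 0.18 (0.04 to 0.31, adjusted p 0.0491). CDH1 missed in 4 of 6 fits without a library (up to 0.206), in the fit of all 54, the fit of 2 groups and under relative log expression scaling. With the USP18 vector the compounds thus differed at 2.5 µM in TGFB2 and VIM, as they did in 28.2% of all genes. Whether these differences depend on the vector was not tested.

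**Figure D3:**
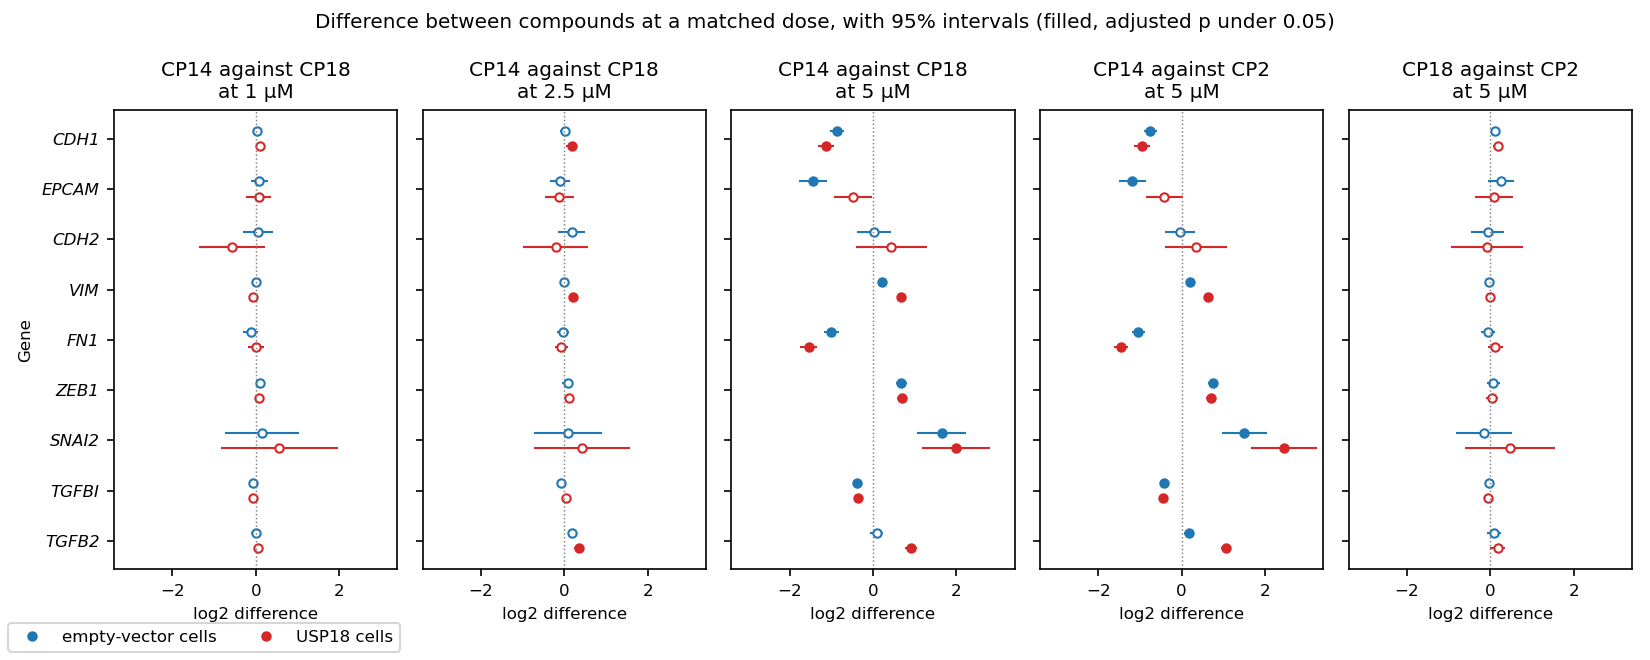
Log2 fold changes with 95% intervals of the 9 genes between compounds at equal dose, one panel per pair, with the empty vector in blue and the USP18 vector in red. Filled points passed an adjusted p of 0.05; only panels with CP14 at 2.5 or 5 µM hold any.

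In the plot of compound pairs the 2 panels with 5 µM CP14, which share the CP14 libraries, look alike. The panel of CP18 against CP2 stays near 0, with CDH1 slightly above it. CP14 at 5 µM is the treatment that moved the most members, but it moved most genes of the table too. Against vehicle 63.2% of all genes passed with the empty vector and 68.6% with the USP18 vector. The codes do not say what distinguishes CP14.

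Group means of the members, centred within each vector, show which genes move as one over the 18 groups. Each correlation over all treatments has n = 18 group means, each less the mean of all groups of its vector, vehicle included. The 5 µM CP14 groups weigh heavily, and values without them rest on fewer group means. CDH1 and FN1 read 0.95 (0.72 without 5 µM CP14), CDH1 and EPCAM 0.89 (0.79), CDH1 and VIM −0.91 (−0.62), VIM and FN1 −0.94 (−0.76). ZEB1 and SNAI2 read 0.92 but 0.26 without 5 µM CP14, CDH1 and ZEB1 −0.90 but −0.16, VIM and TGFB2 0.87 but 0.43. The tie of CDH1 to FN1, EPCAM and VIM therefore runs through several doses, while that to ZEB1 rests on the single highest CP14 dose. CDH2 followed none of the other members (−0.24 to 0.32). CDH1 and TGFBI changed sign, from 0.74 to −0.62, when that dose was left out.

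The nearest genes by the same correlation were sought with 5 µM CP14 included only, so their values may rest on that dose. Among 13855 genes searched the nearest to CDH1 were TP53I11 (0.993) and TM4SF20 (0.990), to EPCAM ARSE (0.966) and RAB15 (0.965), and to FN1 MMD (0.983) and TAPBP (0.981). VIM lay nearest to ALOXE3 (0.984) and TOP1 (0.98), ZEB1 to VEGFA (0.986) and AMMECR1L (0.985), SNAI2 to PLEKHA2 (0.973) and RASGRF2 (0.972). TGFBI had NCOA5 (0.954) and DHRS2 (0.952), TGFB2 LIMA1 (0.950) and CD59 (0.945), CDH2 only CDS1 (0.722) and RGL2 (0.721). No member was the nearest gene of another, and the low values for CDH2 show that none of the genes searched tracks its small movements closely.

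Lists of genes of the same processes, which include the members themselves, put them in context, so each count and median holds the members' own values. They stand beside the median of all genes, −0.01 for the vehicle vector comparison and 0.01 for 5 µM CP14 in each vector. Under vehicle 29.0% of all genes were higher and 28.7% lower. Beside this, epithelial adhesion had 5 higher and 10 lower of 18 tested (median −0.48) and mesenchymal genes 4 higher and 10 lower of 15 (−0.44). CLDN3 rose from 1.09 to 4.73 CPM (2.10, adjusted p 7.41e-08) and KRT19 from 4.35 to 27.0 CPM (2.63, adjusted p 8.08e-15) against the trend of CDH1 and EPCAM, while KRT8 fell from 6148 to 3756 CPM (−0.72). CDH1 and CDH2 thus fell with part of their lists and not with all. The list of ZEB1 leaned lower while ZEB1 rose, with TWIST1 at 1.76 and SNAI1 at −1.05 (adjusted p 3.07e-07 and 3.2e-07), with 2 higher and 4 lower of 8 (median −0.26, or −0.25 without ZEB2, which has too few counts). TGF-beta targets had 6 higher and 17 lower of 24 (−0.45): CDKN1A fell from 279 to 106 CPM (−1.41, adjusted p 1.39e-17), beside SMAD7 at −0.90 (adjusted p 7.99e-09). TGFBI thus fell with most genes of its target list, while the receptor list (5 higher and 1 lower of 11, median 0.12) did not follow. Ligands, the list of TGFB2, had 4 higher and 5 lower of 16 (−0.05), SMADs and inhibitors 9 higher and 6 lower of 21 (0.06), matrix genes 9 higher and 12 lower of 24 (−0.33). Keratins had 1 higher and 4 lower of 5 (−0.55) and epithelial regulators 5 higher and 3 lower of 9 (0.43).

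TGFBI fell at 5 µM CP14 while more of its target list rose than fell. The list had 14 higher and 7 lower of 24 with the empty vector (median 0.28), beside 31.0% higher and 32.1% lower of all genes, and 15 higher and 7 lower with the USP18 vector (0.41), beside 34.4% and 34.3%. CDKN1A rose from 279 to 692 CPM (1.31) and from 106 to 440.4 CPM (2.07). Receptors leaned the other way, 3 higher and 7 lower of 11 (−0.27, or −0.26 without ACVRL1, which has too few counts) and 1 higher and 6 lower of 11 (−0.22), with TGFBR2 at −0.62 and −0.69. TGFBI is thus among the 7 targets that fell. Mesenchymal genes had 9 higher and 4 lower of 16 (0.31) and 9 higher and 2 lower of 16 (0.20). AXL rose beside VIM by 1.45 and 2.21, and NT5E by 1.61 and 1.79, while S100A4 of the same list fell by 1.39 and 1.61. Matrix genes had 12 higher and 8 lower of 23 (0.18) and 15 higher and 6 lower (0.46). TNC rose by 3.92 and 4.08, opposite to FN1, from low vehicle levels of 0.279 and 1.80 CPM. COL3A1, also at low levels, fell as FN1 did (−1.69 and −3.53). SMADs and inhibitors had 12 higher and 6 lower of 21 (0.27) and 13 higher and 6 lower (0.38). Ligands, counted without TGFB1, which was not matched, had 4 higher and 7 lower of 17 (−0.08) and 6 higher and 8 lower (−0.17). The median of these ligands thus does not share the rise of TGFB2.

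Epithelial adhesion at 5 µM CP14 had 5 higher and 9 lower of 20 tested (median −0.31) with the empty vector and 8 higher and 6 lower of 20 (0.07) with the USP18 vector, not far from the 31.0% higher and 32.1% lower, then 34.4% and 34.3%, of all genes. JUP fell with CDH1 by 1.57 (−1.57, adjusted p 6.12e-16) and 1.94 (−1.94, adjusted p 5.03e-18), while CLDN1 rose by 1.23 and 1.17. Keratins had 2 higher and 2 lower of 5 (−0.04) and 3 higher and 2 lower (0.89), epithelial regulators 3 higher and 4 lower of 10 (−0.16) and 4 higher and 3 lower (0.12). Repressors and related factors had 5 higher and 3 lower of 9 (0.37) and 6 higher and 3 lower of 9 (0.82, or 0.76 without ZEB2). ZEB2 rose with ZEB1, by 1.28 (adjusted p 0.000406) with the empty vector and from 6 to 142 counts with the USP18 vector, a ratio of 24 with a counting interval of 10.7 to 66.4. ESRP1, a splicing regulator that ZEB1 is known to repress, also rose, by 1.201 and 1.84. The fall of CDH1 and EPCAM is therefore not a fall of all epithelial genes. Of the list of ZEB1 and SNAI2 some factors rose with them, and others such as TCF4 fell (−0.87 and −1.52).

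**Figure D4:**
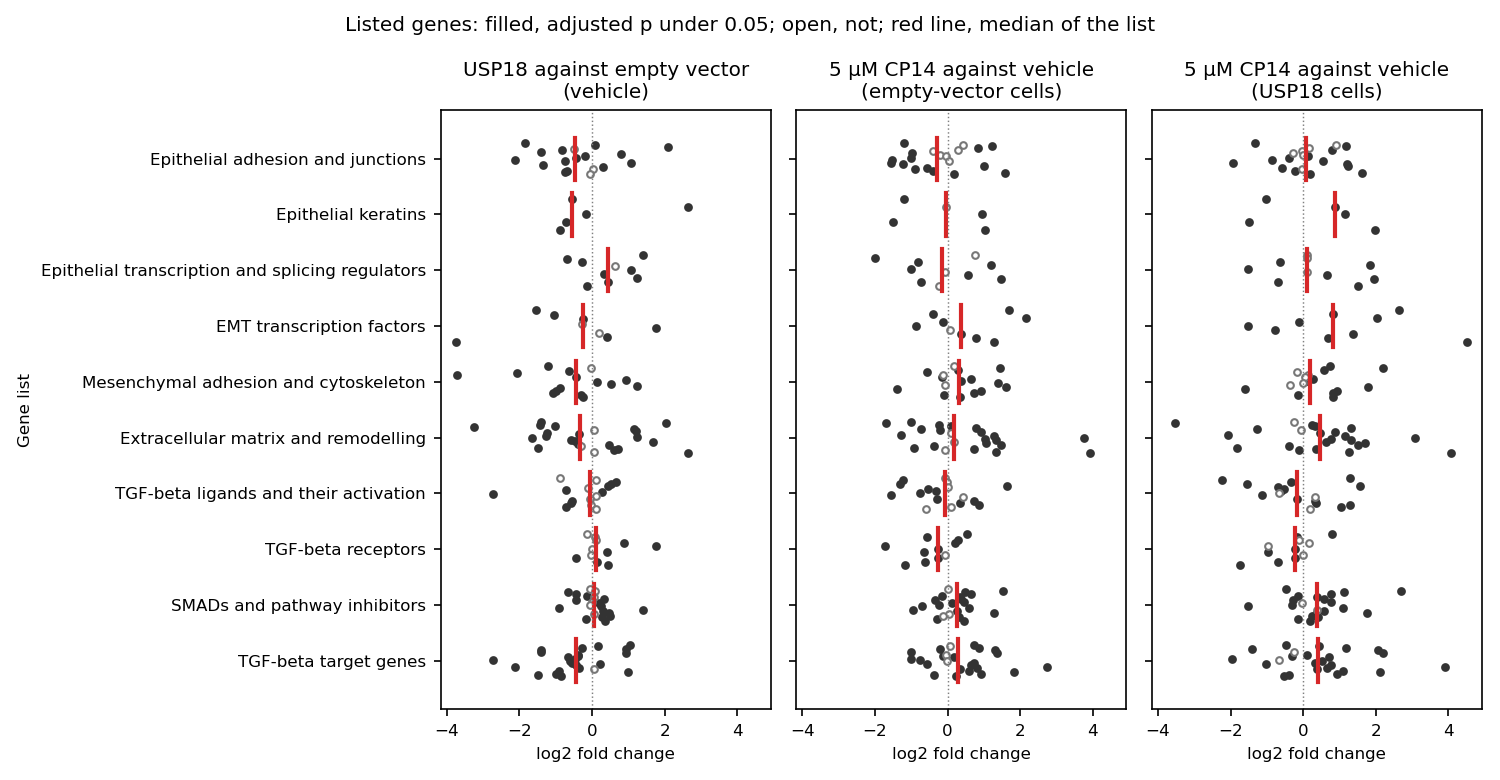
Log2 fold changes of single genes in 10 lists for the vehicle vector comparison and for 5 µM CP14 in each vector. Filled points passed an adjusted p of 0.05 and the red line is the list median; TGF-beta targets lie mostly under 0 for the vector and mostly over 0 for CP14.

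The strip plot of the lists shows wide spread inside every list, so the members cannot be read as stand-ins for their class. FN1 and TGFBI in particular run against the median of matrix and target genes at 5 µM CP14.

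Limits remain. Vector and cell line are the same contrast, each compound dose has 3 libraries a vector, and only 1 time point, 48 h, was sampled, so early and late changes cannot be separated. RNA levels say nothing of protein, cell shape or movement. SNAI2 and, with the USP18 vector, CDH2 rest on few counts. USP18 level itself rose to its highest at 5 µM CP14 in the USP18 vector, and whether that bears on the interactions was not tested.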

How the data were processed

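RNA from 54 libraries of A549 cells was sequenced with a stranded Illumina kit; per the labels poly(A) RNA was captured, whereas the published methods describe depletion of ribosomal RNA. The deposited table holds one expected count per gene and library, which the authors made by demultiplexing with bcl2fastq, trimming with cutadapt 1.18, mapping to hg38 with STAR 2.7.0f and counting with RSEM. Of its values 94.0% are whole numbers; those of TGFB2 and USP18 often are not, since RSEM divides reads that fit several genes.

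Expected counts were rounded. The fits used the quasi-likelihood test of edgeR 4.0.16 under R 4.3.3 after TMM scaling, on genes that filterByExpr kept (the equivalent of 10 counts or more in at least 3 libraries, and 15 in total), with Benjamini-Hochberg adjustment over every gene tested. A member passes at an adjusted p under 0.05. Standard errors (SE) are the log2 fold change over the root of F. The 35 comparisons are USP18 against the empty vector with vehicle (6 libraries), 8 compound doses against vehicle in each vector with the interaction (12 libraries each), and 5 pairs of compounds at equal dose in each vector (12 libraries each). Interaction values are the change with the USP18 vector less that with the empty vector. Alternatives were DESeq2 1.42.0, relative log expression scaling, 2 other filters, replicate as a block, fits of 2 groups alone, 1 fit holding all 54 libraries, and fits that each omit a library. The scripts were first tested on simulated counts. Intervals of ratios from low counts cover counting error only, and a list gene whose libraries in a group all hold at most 3 counts gets such a ratio in place of a fold change.

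Besides the 9 members the text names USP18, overlapping or opposite-strand transcripts of members, marker genes, up to 4 genes a list (adjusted p under 0.05, groups apart, at least 1 CPM, largest change) for 3 comparisons, and the 2 genes nearest to each member in pattern; some genes that this rule picks are not reported here. The members and lists were chosen with earlier results of these data known. The lists hold 200 genes, of which 199 matched the table, all but TGFB1 of the ligand list. Gene lengths are from GENCODE v44.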

Additional observations from a re-analysis of the deposited data

Results flagged for a closer look

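The 9 results here were picked out because the interaction test gave different changes in the 2 vectors; each value is the log2 fold change with the USP18 vector less that with the empty vector. For FN1 the interaction was −0.41 at 5 µM CP2 and −0.79 at 5 µM CP14, each a deeper fall with the USP18 vector, and −0.53 at 1 µM CP14 and −0.65 at 1 µM CP18, where the USP18 vector fell and the empty vector mean lay above its vehicle. For CDH1 it was 0.29 at 2 µM CP2 and 0.26 at 2.5 µM CP14, where the fall passed with the empty vector alone. For VIM it was 0.22 at 2.5 µM CP14 and 0.48 at 5 µM CP14, a larger rise with the USP18 vector. For TGFB2 it was 0.97 at 5 µM CP14, a rise that passed with the USP18 vector alone.

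The interactions of CDH1, and that of FN1 at 5 µM CP2, were lost in most fits that left out a library (9 of 12, 10 of 12 and 8 of 12). The other 6 kept their side of the threshold in every such fit.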

How the results depend on the processing

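Of 4290 alternative values for members 4152 kept their side of the threshold, 106 lost a call, 32 gained one and 0 reversed a call. Of 93 calls 76 held in every alternative, among them all 8 of the vehicle vector comparison and all 18 of 5 µM CP14 with its interaction. Counts of members that passed and moved to or from 0, or by more than 1.5 times, are given next; smaller moves are not listed setting by setting. The cause was not tested.

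In the fit of all 54 libraries the count was 0 for 2 µM CP2 with the empty vector and for its interaction (1 each before), 0 for the 5 µM CP2 interaction (1), and 1 for the 2.5 µM CP14 interaction (2), for 1 µM CP18 (2) and for 2.5 µM CP18 (3) with the USP18 vector. With no filter it was 2 for 2 µM CP2 (1), and 1 for 1 µM CP14, for 1 µM CP18 and for 2.5 µM CP14 against CP18 (0 each), all with the empty vector. DESeq2 gave 2 for 2 µM CP2 and 1 for 1 µM CP14 and 2.5 µM CP14 against CP18 with the empty vector. A filter of 10 counts in every library gave 1 for that last pair. Relative log expression scaling gave 1 for the 2.5 µM CP14 interaction and 1 µM CP18 with the USP18 vector. Fits of only the 2 groups compared gave 1 for 1 µM CP18 in each vector, 2.5 µM CP18 with the USP18 vector and 2.5 µM CP14 against CP18 with the empty vector.

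Replicate number as a block gave 0 for the 5 µM CP2 interaction and 1 for 2.5 µM CP18 with the USP18 vector, and left 308 of 314 member results on their side. Replicates of equal number were not alike across groups: 81 correlations ran from −0.15 to 0.18 with a median of −0.01, and 0 of 27 comparisons had all 3 over 0.1, so no pairing was used.

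Leaving out a library gave 1 to 2 members for 2 µM CP2 and 0 to 1 for its interaction, 0 to 1 for the 5 µM CP2 interaction, 1 to 2 for 1 µM CP14 with the USP18 vector and 1 to 2 for the 2.5 µM CP14 interaction. For CP18 it gave 0 to 2 at 1 µM and 1 to 3 at 2.5 µM with the USP18 vector, and 1 to 2 and 1 to 3 at 5 µM. In every other comparison the count stayed or moved by 1 member, as from 8 to 9 for the vehicle vector comparison. Of 324 settings for levels 4 moved, all under relative log expression scaling. Few counts limit SNAI2 and CDH2.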
